A study of Mus musculus with 48 samples.

Results

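Adult mouse epidermis was compared between zeitgeber time (ZT) 12 and ZT8, that is, across the last 4 h of the light phase, in 4 libraries per time point chosen by their age and time labels out of the 48 libraries of the series. Zeitgeber time counts hours from lights on, so ZT12 is lights off in an even light-dark day. All 24996 genes with deposited counts entered, and 18044 had enough reads to be tested. The series holds bulk total RNA sequencing of epidermal cell suspensions from adult mice of 18 to 25 weeks and aged mice of 80 to 90 weeks, with 4 libraries at each of ZT0, ZT4, ZT8, ZT12, ZT16 and ZT20 in each age class, and its title concerns the clock factor BMAL1 and the co-activator YAP in aged epidermis. Used beside the 8 adult libraries were the 4 aged libraries at ZT8 and at ZT12 and the 4 adult libraries at ZT20 and at ZT0. No agent was given in any group. Genotype, strain, sex and housing are not given in the labels, and these do not say that replicates came from separate animals, so p-values measure the spread between these libraries.

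The circadian clock of mammalian cells is a feedback loop in which the transcription factors BMAL1 (gene Arntl) and CLOCK bind E-box sequences and switch on the Period (Per) and Cryptochrome (Cry) genes, whose proteins then repress their own activators. A second loop runs through the REV-ERB receptors (Nr1d1, Nr1d2), which repress Arntl, and the ROR receptors, which activate it. In the epidermis, a layered tissue of keratinocytes with hair follicles, resident immune cells and melanocytes, this clock is known to time cell division, DNA repair and metabolism over the day.

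The 8 libraries held 41851586 to 46227541 counts each, within the 40761084 to 49229498 of the whole series. Values are given as CPM, the usual counts-per-million unit, here on library sizes scaled with the TMM method, and differences as log2 fold changes of ZT12 over ZT8 with standard errors (SE). The labelled tissue showed its defining keratins in every library, with the basal keratins Krt5 at 1945 to 3843 CPM and Krt14 at 1730.3 to 3022 CPM, and the suprabasal keratins Krt1 at 736 to 1681 CPM and Krt10 at 2233 to 6470 CPM. All 8 libraries had at least 85452 counts of Xist and at most 12 of each of the Y-linked genes Ddx3y, Uty and Eif2s3y.

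The ZT12 libraries fell into a pair of pairs. Replicates 1 and 2 differed by a chi-square of 50.3 per gene and replicates 3 and 4 by 40.9, whereas the 4 comparisons across these pairs gave 175 to 229, against 24.1 to 85.2 within ZT8. Marker lists differed between the ZT12 libraries, some of them by pair. The mean centred log2 level of 20 Langerhans cell markers was 0.95 and 0.86 in ZT12 replicates 1 and 2 and -1.22 and -0.65 in replicates 3 and 4, against -0.72 to 0.22 at ZT8. For 19 anagen hair genes it was -1.40, 0.55, 1.69 and 3.06 in ZT12 replicates 1 to 4, against -0.02 to 1.80 at ZT8. For 25 immediate early genes, which respond to handling and stress within minutes, it was 0.55, 0.00, -1.32 and -0.64. At ZT8 it was -0.57 to 0.02. ZT8 replicate 2 stood apart in the dermal fibroblast list at 1.33 and the melanocyte list at 1.49, where the other ZT8 libraries lay below 0. In bulk RNA, fewer cells of a type and less RNA per cell cannot be told apart, and the part of these differences in the results was examined by the values without these libraries and by those with the fibroblast and Langerhans list means as covariates, given with the counts.

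Between ZT8 and ZT12 a small set of transcripts changed, led by the clock genes Per2 and Cry1, by a long noncoding RNA and by small structured RNAs of the nucleolus and spliceosome. Of the 18044 genes tested, 79 (0.438%) passed an adjusted p of 0.05 in edgeR's quasi-likelihood test, with 50 higher at ZT12 (0.277%) and 29 lower (0.161%). At an unadjusted p of 0.05 there were 2712. The rises were the larger changes: 19 were at least 1 log2 unit, whereas 0 of the 29 called falls reached that size, and the falls ran from -0.93 to -0.21. The median over all genes was -0.0040. Of the 79, 69 had ranges over the 4 libraries that did not overlap between times, against 5.72% of all genes tested. These were 42 rises and 27 falls, against 2.7% of all genes above and 3.02% below. Among the 50 rises were 30 protein-coding genes, 16 small noncoding RNAs and 1 long noncoding RNA. Among the 29 falls were 22 protein-coding genes, 2 long noncoding RNAs and 1 microRNA, and 5 of the 79 had no symbol.

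These counts moved with the fit and with single libraries. DESeq2 called 154 genes higher and 158 lower, and edgeR fitted to the 8 libraries alone, with no other group to share in the estimate of spread, called 3 higher and 0 lower. Without ZT8 replicates 1, 2, 3 and 4 in turn, 30, 32, 23 and 16 genes were higher and 10, 19, 8 and 6 lower. Without ZT12 replicates 1, 2, 3 and 4 in turn, 125, 238, 23 and 25 were higher and 53, 310, 4 and 11 lower. Without both ZT12 replicates 1 and 2, 919 were higher and 1566 lower, with 73 of the 79 among them, and without replicates 3 and 4, 47 were higher and 13 lower, with 28 of the 79 among them. With the fibroblast and Langerhans list means as covariates, 701 were higher and 842 lower, with all 50 rises and 29 falls among them. A set of 16 genes was called in each of the 8 fits that left out 1 library. Its 13 rises included Per2, Cry1, BC018473, Lonrf1, Snord33, Snord49a, Snord49b, Snord89, Rnu12, Rnu5g, Rny3 and Rn4.5s. Its 3 falls were Anp32a, E130317F20Rik and an Entrez record without a symbol. Those 8 fits kept the other groups in the estimate of spread. In the fit of the 8 libraries alone, the 3 genes called were Per2, Cry1 and BC018473, and the rest of the 16 were lost.

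**Figure D1:**
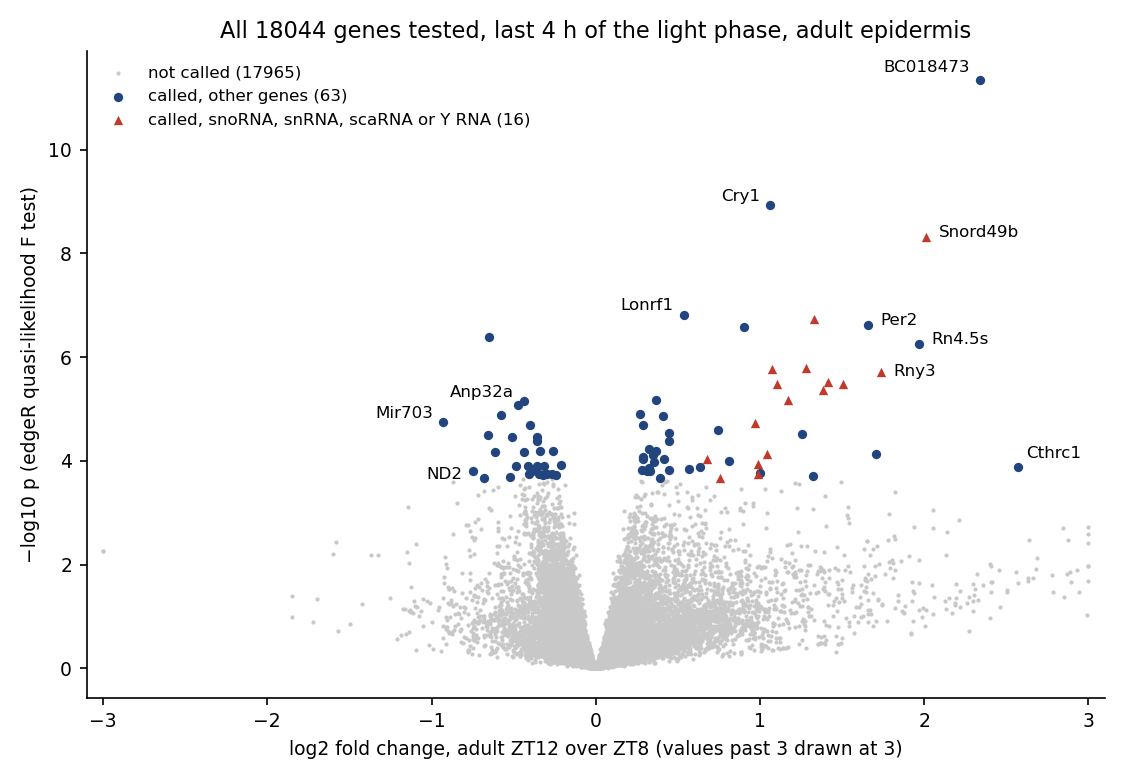
Log2 fold change of adult epidermis at ZT12 over ZT8 (horizontal) against the negative log10 of the unadjusted p (vertical) for the 18044 genes tested, with values past 3 log2 units drawn at 3, called small RNAs as red triangles, other called genes in blue and the rest in grey. BC018473 (2.34), Snord49b (2.01) and Per2 (1.66) lie far to the right, while the falls lie closer to 0, the farthest being Mir703 at -0.93.

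Per2, a Period repressor of the loop (chr1:91415977-91459351, GRCm38), was read at 17.4, 24.8, 25.1 and 22.4 CPM in the 4 ZT8 libraries and at 81.8, 81.7, 53.8 and 66.3 CPM at ZT12. All ZT12 libraries lay above all ZT8 libraries, and the higher pair were replicates 1 and 2. The mean rose from 22.4 ± 3.56 to 70.9 ± 13.5 CPM (SD, n = 4), a log2 fold change of 1.66 (SE 0.27, edgeR adjusted p = 0.00069).

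Cry1, the Cryptochrome repressor that peaks later than the Period genes (chr10:85131700-85185054, GRCm38), was read at 10.5, 9.10, 9.98 and 11.4 CPM at ZT8 and at 17.9, 21.2, 22.3 and 24.2 CPM at ZT12. The groups did not overlap and each was tight. Its mean rose from 10.3 ± 0.966 to 21.4 ± 2.67 CPM (SD, n = 4), by 1.06 log2 units (SE 0.13, edgeR adjusted p = 1.08e-05). The promoter of Cry1 is shown because it holds the canonical E-box bound by BMAL1 and CLOCK, CACGTG, which is printed in capitals. The sequence runs from 250 bases before to 50 bases after the gene's start (RefSeq, GRCm38.p6, chr10:85185005-85185304, minus strand):
Cry1: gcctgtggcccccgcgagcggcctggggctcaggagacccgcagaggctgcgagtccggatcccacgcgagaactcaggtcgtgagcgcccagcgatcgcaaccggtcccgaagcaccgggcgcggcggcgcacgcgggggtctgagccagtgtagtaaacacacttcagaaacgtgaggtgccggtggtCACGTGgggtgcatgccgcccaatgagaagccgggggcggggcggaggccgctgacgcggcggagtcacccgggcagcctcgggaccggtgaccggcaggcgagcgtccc

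Per2 and Cry1 were the 2 called among 10 core repressors, whose median difference was 0.42 with 9 of 10 members above 0.

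Among the repressors that did not pass the test, Per1 was read at 97.1, 81.3, 105 and 81.8 CPM at ZT8 and at 202, 160.2, 114 and 160.3 CPM at ZT12, with ZT12 above ZT8 throughout, a difference of 0.80 (SE 0.26, adjusted p = 0.129). Per3 was read at 96.0, 88.5, 106 and 118 CPM against 176, 148, 171 and 146 CPM, again without overlap, a difference of 0.65 (SE 0.23, adjusted p = 0.16). Nr1d1, which encodes REV-ERB alpha, was read at 122, 124, 139 and 136 CPM against 98.7, 108, 60.6 and 54.6 CPM, with every ZT12 library below every ZT8 library, a difference of -0.70 (SE 0.21, adjusted p = 0.104). Nr1d1 passed without ZT12 replicate 2, at -0.87 (adjusted p = 0.0295), and without both ZT12 replicates 1 and 2, at -1.19 (adjusted p = 0.0025). With the fibroblast and Langerhans list means as covariates, Nr1d1 passed at -0.72 and Per3 at 0.81. The weaker repressor differences were 0.60 for Ciart and 0.21 for Cry2, both with ranges apart, and 0.08 for Nr1d2.

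Per3 carries a different clock element, shown for contrast with Cry1: its promoter holds 2 copies of the D-box TTATGTAA, the element bound by the DBP, TEF and HLF activators and by the repressor NFIL3 (capitals; RefSeq, GRCm38.p6, chr4:151044616-151044915, minus strand):
Per3: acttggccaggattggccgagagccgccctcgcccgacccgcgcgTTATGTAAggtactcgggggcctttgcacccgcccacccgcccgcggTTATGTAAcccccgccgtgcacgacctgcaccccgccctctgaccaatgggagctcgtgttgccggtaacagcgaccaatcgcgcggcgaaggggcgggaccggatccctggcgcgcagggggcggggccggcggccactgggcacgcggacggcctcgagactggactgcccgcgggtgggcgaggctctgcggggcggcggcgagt
Searched on both strands, CACGTG, a palindrome, was found in 2349 of 32851 RefSeq promoters of this length (7.15%) and in 1400 of the 13055 tested genes with a promoter in the table (10.7%). It was found in 3 of the 42 called genes with a promoter, Cry1, Pdxk and Zbtb11, and in 6 of 25 genes of the core clock and output lists, Bhlhe41, Ciart, Coq10b, Cry1, Per1 and Tef. TTATGTAA was found in 308 of all promoters (0.938%), in 1 of the 42 called genes, Sumo2, and in 2 of the 25 clock genes, Coq10b and Per3. The promoters of Per2, BC018473 and Lonrf1 were not searched. A match describes these letters in this window and is no evidence of binding.

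Of the activators, Arntl was read at 26.6, 22.4, 24.3 and 23.2 CPM at ZT8 and at 12.9, 14.5, 23.6 and 17.8 CPM at ZT12, overlapping through ZT12 replicate 3, a difference of -0.49 (SE 0.16, adjusted p = 0.13). It passed without ZT12 replicates 3 and 4, at -0.81 (adjusted p = 0.0369), and with the list covariates. Clock differed by -0.18, its paralogue Npas2 by -0.41, Rora by 0.08 and Rorb by 0.32, and these 4 did not pass.

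Among 14 clock output factors, 0 were called by edgeR and the median difference was 0.23. Of the 14, 6 had an unadjusted p under 0.05, against 2712 of all 18044 genes tested. Nfil3, the repressor that competes at D-boxes, was read at 4.56, 7.65, 5.63 and 5.13 CPM at ZT8 and at 11.8, 9.97, 17.1 and 15.3 CPM at ZT12, without overlap, a difference of 1.23 (SE 0.38, adjusted p = 0.11). DESeq2 called Nfil3 (adjusted p = 0.0433) and Wee1 (adjusted p = 0.0453) of this list. Wee1, a kinase that delays mitosis, differed by 0.81 (adjusted p = 0.105) and Usp2, a deubiquitinase, by 0.70 (adjusted p = 0.141). Dbp, the best known of the D-box activators, was read at 78.0, 90.4, 94.8 and 87.8 CPM at ZT8 and at 111, 114, 58.8 and 58.5 CPM at ZT12, so that the ZT12 pairs lay on either side of ZT8 and the difference was -0.04. Bhlhe40, an E-box repressor also induced by stress, split the same way, with 113 and 122 CPM in ZT12 replicates 1 and 2 and 23.5 and 29.4 CPM in replicates 3 and 4, around 48.6 to 91.7 CPM at ZT8. Its difference of 0.02 turned to -1.44 (adjusted p = 0.0165) without ZT12 replicates 1 and 2.

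**Figure D2:**
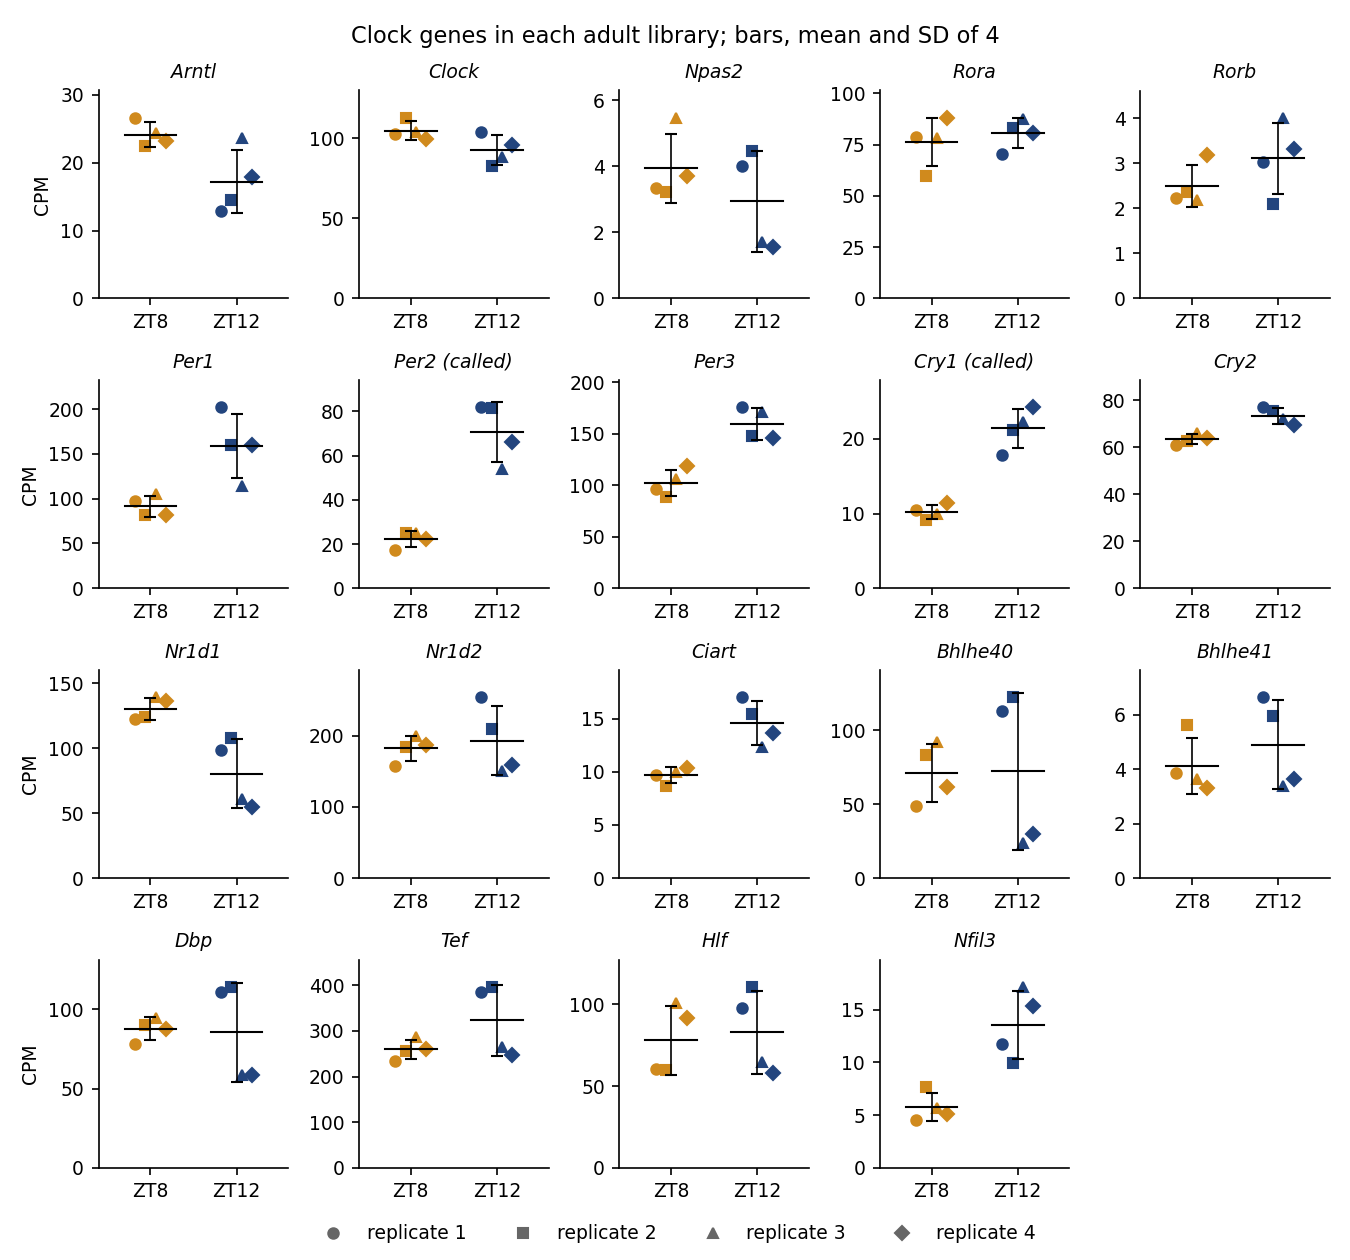
Level in CPM of clock genes, 1 panel each with its own scale from 0, in the 4 ZT8 and 4 ZT12 adult libraries, with marker shapes for replicates 1 to 4, a black line for the mean and bars for SD. Per2 and Cry1 separate by time, while the ZT12 points of Dbp and Bhlhe40 spread to both sides of the ZT8 points, Bhlhe40 from 23.5 to 122 CPM.

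Set in the adult day of 6 times, Per2 and Cry1 took this step at different phases. Per2 had adult means of 5.37, 3.00, 22.4, 70.9, 57.1 and 20.3 CPM at ZT0, ZT4, ZT8, ZT12, ZT16 and ZT20, so ZT12 was its highest mean. Cry1 had means of 23.5, 9.46, 10.3, 21.4, 35.7 and 43.5 CPM, still below its ZT20 level at ZT12. Nr1d1 had its highest mean at ZT8, with 19.2, 78.2, 131, 80.4, 30.0 and 10.7 CPM, and Arntl its lowest at ZT12, with 75.3, 52.7, 24.1, 17.2, 35.7 and 60.9 CPM. Of the 50 rises, 36 had their highest adult mean at ZT12, 9 at ZT16 and 5 at ZT20, and 26 had their lowest at ZT8. Of the 29 falls, 22 had their lowest adult mean at ZT12, and the highest lay at ZT8 for 13, ZT20 for 11, ZT4 for 3 and ZT0 for 2. These counts share the ZT8 and ZT12 libraries with the calls and are a description.

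**Figure D3:**
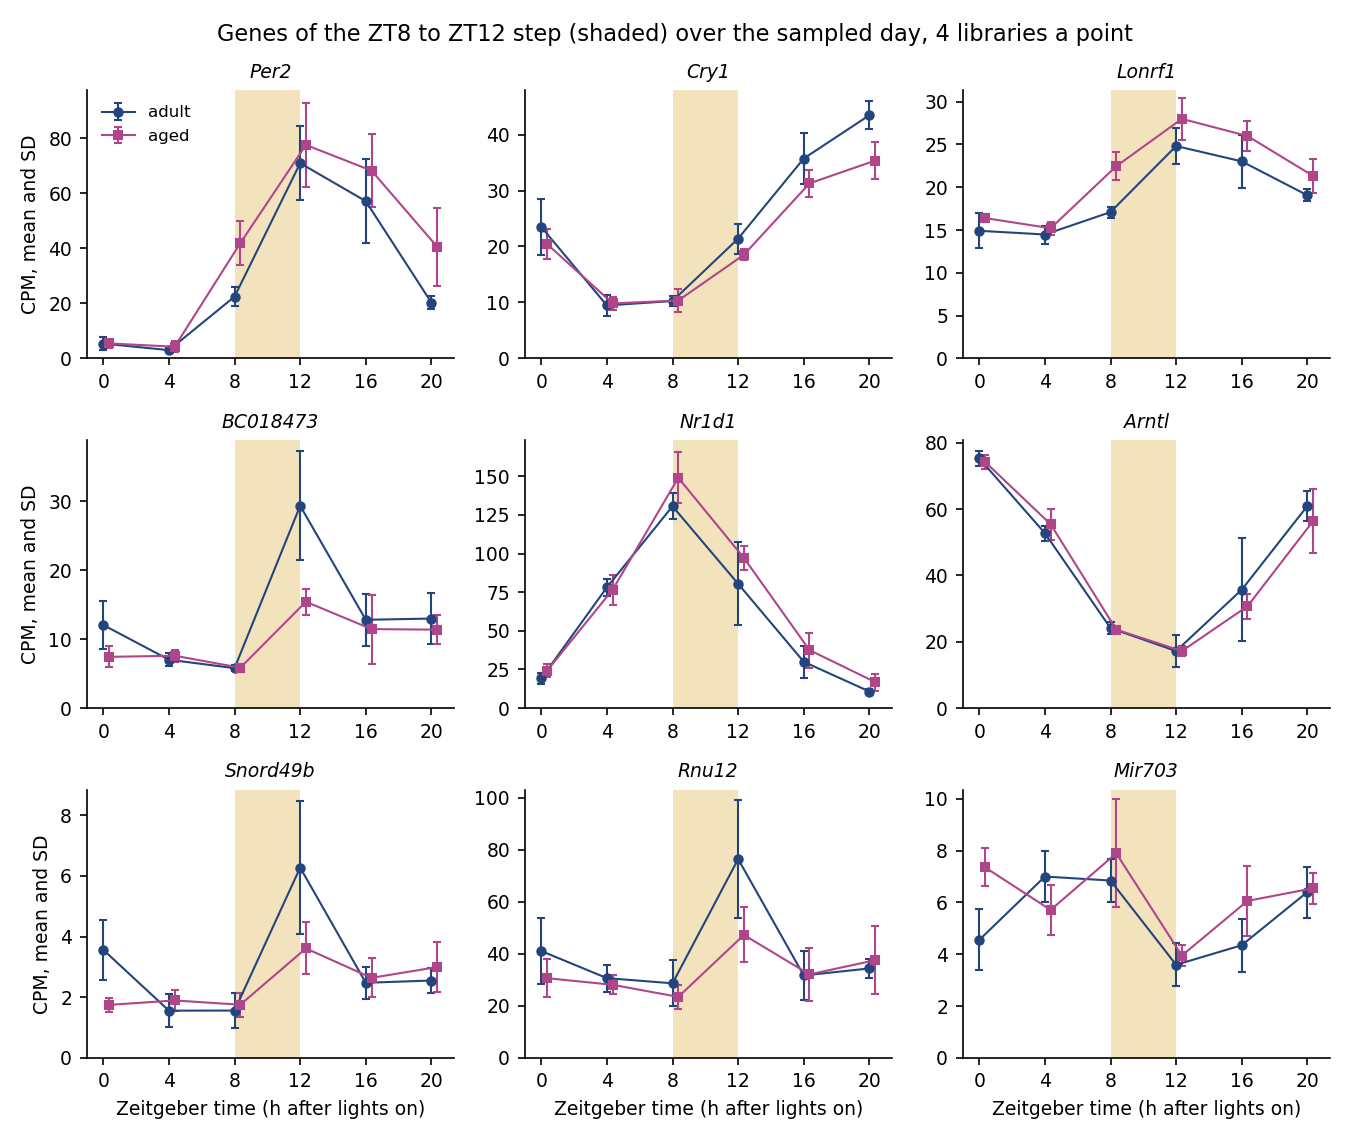
Mean level in CPM against zeitgeber time in hours for 9 genes, in adult (blue circles) and aged (magenta squares) epidermis, with SD bars over 4 libraries a point and the ZT8 to ZT12 step shaded. In adult epidermis Per2 and BC018473 are highest at ZT12, at 70.9 and 29.3 CPM, whereas Cry1 is highest at ZT20, at 43.5 CPM, and Nr1d1 is highest at ZT8, at 131 CPM.

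The largest rise at a mean level above 1 CPM was BC018473, a long noncoding RNA (Entrez 193217, chr11:116752167-116757883, GRCm38). It was read at 6.45, 5.43, 5.81 and 5.47 CPM at ZT8 and at 29.8, 39.7, 27.1 and 20.7 CPM at ZT12. The groups lay far apart, and the mean rose from 5.79 ± 0.470 to 29.3 ± 7.90 CPM (SD, n = 4), by 2.34 log2 units (SE 0.24, edgeR adjusted p = 8.28e-08). Its adult means at ZT0, ZT4, ZT16 and ZT20 were 12.0, 7.01, 12.8 and 12.97 CPM, and every adult ZT12 library lay above the 16.7 CPM of the highest adult library at another time.

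Protein-coding rises were mostly smaller, and 19 of the 50 rises were under 0.5 log2 units. Lonrf1, a RING-finger ubiquitin ligase, was read at 16.4, 17.3, 16.9 and 17.9 CPM at ZT8 and at 27.9, 23.6, 23.2 and 24.5 CPM at ZT12, apart at every library, and rose by 0.54 (SE 0.08, edgeR adjusted p = 0.000678). Angptl7, a secreted angiopoietin-like protein and the largest called protein-coding rise by the naming rule, was read at 4.58, 4.67, 6.73 and 3.07 CPM at ZT8 and at 23.9, 24.1, 5.77 and 8.25 CPM at ZT12, so the groups overlapped and replicates 1 and 2 carried the change of 1.71 (SE 0.39, edgeR adjusted p = 0.0311). Without those 2 libraries Angptl7 differed by 0.55 (adjusted p = 0.379). It was also lost without ZT8 replicate 1, 2 or 4 and without ZT12 replicate 1, at 1.69, 1.70, 1.54 and 1.44. Angptl7 lies inside Mtor on the opposite strand, and since the strand setting of the counting is not given in the sources used here, their reads cannot be told apart.

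Further protein-coding rises are named after their values were seen. Flrt3, a membrane protein of cell adhesion and axon guidance, was read at 68.2, 75.8, 80.9 and 73.3 CPM at ZT8 and at 108, 103, 149 and 140.0 CPM at ZT12, above at every library, and rose by 0.75 (adjusted p = 0.0161). Flrt3 was lost without ZT8 replicate 1 or 4 or ZT12 replicate 3 or 4, at 0.65 to 0.74. Cdk9, the kinase of the elongation factor P-TEFb, was read at 32.9, 28.7, 31.1 and 31.1 CPM against 34.9, 36.8, 39.4 and 37.8 CPM, a small rise of 0.27 (SE 0.05, adjusted p = 0.0105) without overlap that was lost without ZT8 replicate 2 or ZT12 replicate 3, at 0.24 in each case. Mlxip, which encodes the glucose-sensing factor MondoA, rose by 0.45, Prkab2, a regulatory subunit of the energy sensor AMPK, by 0.45, Pdxk, the kinase that makes active vitamin B6, by 0.41, and Ippk, a kinase of inositol phosphates, by 0.41. Furin, the protease that matures many secreted precursors, rose by 0.33, Pkd1, which encodes polycystin 1, by 0.36, Tob2, an antiproliferative adaptor of mRNA deadenylation, by 0.37, and Dnaja4, an HSP40 co-chaperone, by 0.33. No list was fixed for these genes. Pkd1 was lost without ZT8 replicate 4, and the other 7 of the last 8 in 3 to 6 of the fits that left out 1 library.

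Small noncoding RNAs made up 16 of the 50 rises and 0 of the 29 falls in edgeR's test, apart from the microRNA counted separately. They were 12 of the 109 small nucleolar RNAs (snoRNAs) tested, which guide the chemical modification of ribosomal RNA, and 2 of 13 small nuclear RNAs. Those 2, Rnu12 and Rnu5g, are spliceosomal, but the class of 13 also holds Rn7sk, which is not. The rest were 1 of 9 small Cajal body RNAs, which guide the modification of spliceosomal RNAs, and 1 of 2 Y RNAs, the partners of the Ro60 protein. Over all 133 such RNAs tested, 107 differed upward and the median difference was 0.34, against -0.0040 over all genes. Of the 133, 16 were called higher, against 0.277% of all genes tested. These classes, and the families and lengths given below, were chosen after the values were seen. They hold the 16, so their counts and medians are a description. The 16 rose by 0.68 to 2.01. All 16 had ZT12 ranges above ZT8, against 2.7% of all genes tested, and all 16 had their highest adult mean at ZT12. Both counts use the libraries that chose the 16 and are a description. In aged epidermis, which shares no library with that choice, 10 of the 16 had their highest mean at ZT12. The share of all 133 with that peak was not counted. Among C/D box snoRNAs (Snord genes) 10 of 72 rose with a median of 0.31, and among H/ACA snoRNAs (Snora genes) 2 of 36 rose with a median of 0.45. The annotated lengths of the 16 were 48 to 150 bases. Among the 77 small RNAs under 100 bases 10 rose with a median over all 77 of 0.30, and among the 56 longer ones 6 rose with a median of 0.45. How well the library preparation recovered RNAs this short is not in the labels, and its part was not tested.

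Of the C/D box snoRNAs that rose and lie inside a host gene, 4 with rises above 1 log2 unit are shown because they are among the transcripts that moved most. Box C, TGATGA, and box D, CTGA, the short motifs that fold together and bind fibrillarin's complex, are in capitals (GENCODE M21 transcripts, GRCm38). They lie at chr11:62603079-62603150 plus, chr11:62603450-62603521 plus, chr15:80078498-80078591 minus and chr7:45126864-45126947 minus, in the order printed:
Snord49b: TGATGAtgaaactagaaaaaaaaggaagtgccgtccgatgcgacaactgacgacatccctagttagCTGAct
Snord49a: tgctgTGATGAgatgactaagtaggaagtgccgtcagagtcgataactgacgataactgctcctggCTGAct
Snord83b: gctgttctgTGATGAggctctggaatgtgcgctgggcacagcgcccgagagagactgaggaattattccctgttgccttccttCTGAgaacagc
Snord33: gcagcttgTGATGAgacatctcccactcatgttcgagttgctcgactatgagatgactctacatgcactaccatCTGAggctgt
Read on the transcript strand, TGATGA was found in 74 of 98 Snord transcripts of the annotation (75.5%) and CTGA in 98 of 98.

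Snord49b, the first of these, was read at 2.38, 1.47, 1.03 and 1.36 CPM at ZT8, from 98, 72, 46 and 59 counts, and at 8.22, 8.07, 4.81 and 3.99 CPM at ZT12, from 381, 374, 186 and 152 counts. The groups did not overlap and ZT12 replicates 1 and 2 were highest. It rose by 2.01 (SE 0.27, edgeR adjusted p = 2.96e-05). Its neighbour Snord49a, from another intron of the same host, was read at 2.04, 2.20, 1.79 and 1.64 CPM against 6.19, 6.33, 3.13 and 3.60 CPM and rose by 1.33 (adjusted p = 0.000678), with the same order of the ZT12 pairs. Snord89 rose by 1.28, Snord83b by 1.17 and Snord33 by 1.08. Snord13, known to guide acetylation of the small ribosomal RNA, rose by 1.38. Snord13 and Snord83b were each lost without ZT8 replicate 4, at 1.20 and 1.03.

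Spliceosomal RNAs were among the rises as well. Rnu12, the U12 RNA that recognises branch points of minor introns, was read at 40.7, 24.8, 29.3 and 19.9 CPM at ZT8 and at 87.2, 102, 63.9 and 52.3 CPM at ZT12, without overlap, and rose by 1.42 (adjusted p = 0.00392). Rnu5g, a U5 RNA, which acts in both spliceosomes, was read at 7.13, 4.98, 4.35 and 2.79 CPM against 17.8, 12.2, 12.3 and 12.3 CPM and rose by 1.51 (adjusted p = 0.00392). Scarna3b, a Cajal body RNA, rose by 1.04 and was lost without ZT8 replicate 2, 3 or 4 or ZT12 replicate 3, at 0.85 to 1.08. Rnu5g lies inside Parp16 on the opposite strand.

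Rny3, a Y RNA, was read at 51.6, 31.1, 45.3 and 35.7 CPM at ZT8 and at 152, 219.7, 95.4 and 77.8 CPM at ZT12, and rose by 1.74 (adjusted p = 0.00289). Rn4.5s, a rodent RNA that pairs with polyadenylated transcripts and which the annotation types as ribosomal, was read at 35.6, 27.3, 19.1 and 11.5 CPM against 134, 100.3, 70.0 and 62.3 CPM and rose by 1.97 (SE 0.33, adjusted p = 0.00111). Neither overlapped between times. Rny3, Rnu12, Rnu5g and Rn4.5s belong to multicopy families with near-identical copies, so which copy gave the reads is uncertain.

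The host genes of these snoRNAs did not pass the test. Of the 16 called small RNAs, 11 lay in a tested host on the same strand, 9 hosts in all, 0 of which were called by edgeR. The host differences were below 0 in 8 of 9, among them -0.11 for Rpl3, -0.12 for Rpl13a, -0.21 for 2410006H16Rik, the host of Snord49a and Snord49b, -0.24 for Rpl13 and Rpsa, -0.29 for Rpl27a and -0.08 for Dcaf5. Nop56, which encodes a protein of the C/D box complex itself, differed by 0.20. Without ZT12 replicates 1 and 2, Rpl27a, Rpsa, Rpl13, Rpl3 and 2410006H16Rik passed edgeR's test as lower. Rpl13a, Rpl3 and 2410006H16Rik changed sign under some alternative. The summed level of all small RNAs, 77.7% of it the abundant Rn7sk, was 20397 to 25485 CPM at ZT8 and 18093 to 23874 CPM at ZT12, so the rise was one of many low and moderate members and not of the class total. RNA quality values are not in the labels, and mt-Rnr2, a mitochondrial ribosomal RNA, ranged from 143147 to 181416 CPM at ZT8 and from 125221 to 284615 CPM at ZT12. Its part in the small RNA result was not tested.

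**Figure D4:**
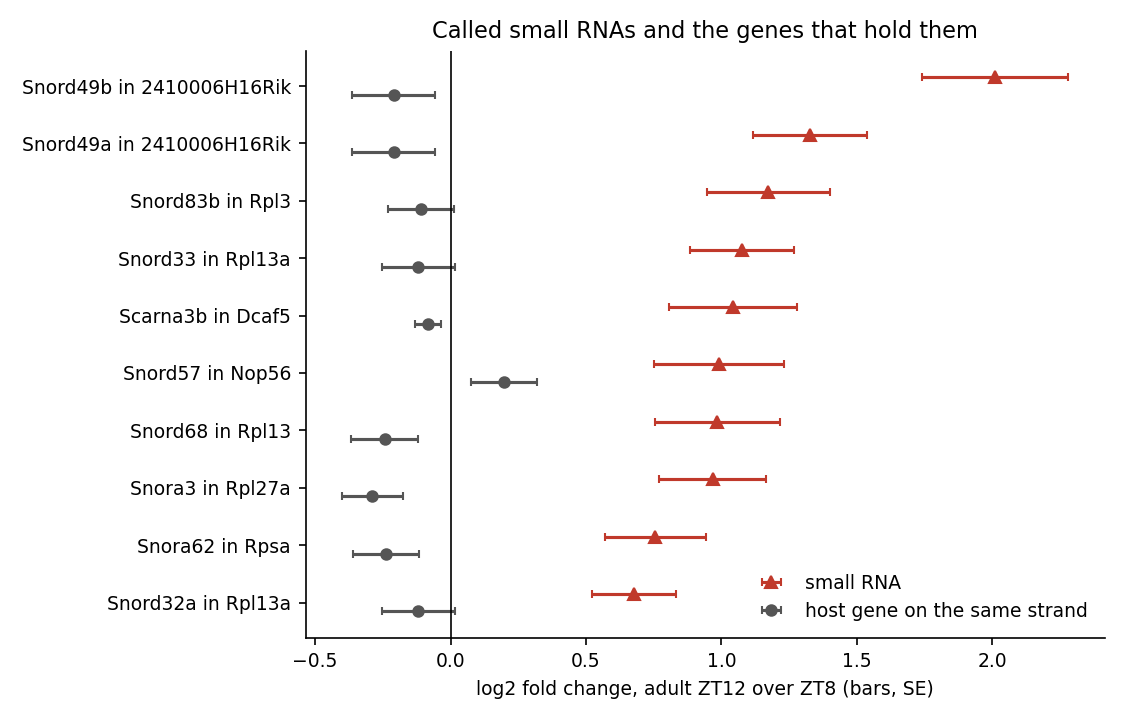
Log2 fold change at ZT12 over ZT8 with SE for the called small RNAs that lie in a tested host gene, beside that of the host, for hosts described here. The small RNAs all lie above 0, up to 2.01 for Snord49b, while the hosts shown lie between -0.29 and -0.08, other than Nop56 at 0.20.

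Among the 29 falls, the largest by the naming rule was the microRNA gene Mir703, read at 6.40, 6.14, 6.82 and 8.03 CPM at ZT8 and at 4.38, 3.54, 2.46 and 3.99 CPM at ZT12. Every ZT12 library lay below every ZT8 library, and it fell by 0.93 on the log2 scale (SE 0.19, edgeR adjusted p = 0.0132). It was lost without ZT8 replicate 4 or ZT12 replicate 3, at -0.84 and -0.78. Total RNA libraries mostly read the primary transcript around such a gene rather than the mature product, and Mir703 lies inside Cfap299 on the opposite strand, whose reads cannot be told apart here. Among 210 microRNA genes tested it was the 1 called, beside 0.438% called over all genes, and their median difference was 0.04. Its mature RNA was not measured, and the mature sequence is shown to identify the gene, with its seed, bases 2 to 8, in capitals (RefSeq, GRCm38.p6, chr5:98475616-98475636, minus strand):
mmu-miR-703: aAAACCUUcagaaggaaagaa

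ND2, a mitochondrially encoded subunit of respiratory complex I, was read at 954, 881, 908 and 1091 CPM at ZT8 and at 461, 441, 549.6 and 829 CPM at ZT12. The groups did not overlap, though ZT12 replicate 4 came close, and ND2 fell by 0.75 (SE 0.18, edgeR adjusted p = 0.0431). The other 12 protein genes of the mitochondrial genome were not called, and the median over all 13 was -0.18, with 10 of 13 below 0. Their summed level split by pair, at 16810.7 and 16800.5 CPM in ZT12 replicates 1 and 2 and 27427.9 and 35573.4 CPM in replicates 3 and 4. At ZT8 the sum was 21035 to 27037.5 CPM. Without ZT12 replicates 1 and 2, COX1 and COX3 passed edgeR's test as higher. ND2 was lost without any 1 library other than ZT12 replicate 4, at -0.78 to -0.64, and without ZT12 replicates 1 and 2, while copies of mitochondrial sequence in the nuclear genome make its reads uncertain.

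Nuclear genes among the falls included Ptma, Anp32a and Cxadr. Ptma, which encodes prothymosin alpha, an acidic histone chaperone, was read at 1164, 1177, 1230.1 and 1390.0 CPM at ZT8 and at 931, 1000.3, 780.2 and 953 CPM at ZT12, without overlap, and fell by 0.44 (SE 0.10, adjusted p = 0.0303). Anp32a, an acidic nuclear protein that likewise binds histones, was read at 64.7, 63.0, 62.4 and 62.1 CPM against 47.1, 45.9, 47.4 and 45.7 CPM, among the tightest separations seen, and fell by 0.44 (SE 0.08, adjusted p = 0.00658). Cxadr, a junctional adhesion protein of epithelia, was read at 445, 400.2, 389 and 404 CPM against 348, 302, 274 and 319 CPM and fell by 0.40 (adjusted p = 0.0137). Ptma was lost without ZT8 replicate 3 or 4 or ZT12 replicate 3 or 4, at -0.45 to -0.37, and Cxadr without ZT8 replicate 1 or ZT12 replicate 3, at -0.36 and -0.34. Ptma and Sumo2 have many near-identical pseudogenes, so their counts are less certain.

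Pde4b, the phosphodiesterase that breaks down cyclic AMP, was read at 45.4, 40.9, 43.7 and 44.5 CPM at ZT8 and at 34.1, 35.5, 23.6 and 23.6 CPM at ZT12, below throughout and lowest in replicates 3 and 4, and fell by 0.58 (SE 0.12, adjusted p = 0.0105). It was lost without either of those 2 libraries, at -0.49 in each case. E130317F20Rik, a long noncoding RNA with a predicted-type symbol outside the naming rule, fell by 0.65 (adjusted p = 0.000919). The remaining large falls by the rule were Meiob, a meiotic single-strand DNA-binding protein, at -0.68, Dnajb3, a J-domain co-chaperone inside the Ugt1a locus on the opposite strand, at -0.66, Acyp1, an acylphosphatase, at -0.52, AV051173 at -0.48, Pop7, a protein of RNase P, at -0.41, and Tmem218 at -0.39. Of the 12 largest falls Anp32a was the 1 gene called in every fit that left out 1 library, the other 11 being lost in 2 to 7 of them, and of the 12 largest rises 9 were called in every one. Smaller falls, named after their values were seen, included Sumo2, the small ubiquitin-like modifier, at -0.36, and Zfp143, a zinc finger activator of small nuclear RNA genes, at -0.21. Both were lost without any 1 ZT8 library and without ZT12 replicate 3 or 4, at -0.38 to -0.32 for Sumo2 and -0.21 to -0.19 for Zfp143.

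Of the 48 gene lists examined, the 45 other than the 3 clock lists held 0 genes called by edgeR. They are described by direction and by members at an unadjusted p under 0.05, to be read against 2712 of all 18044 genes tested. All 30 cytosolic ribosomal protein genes differed downward, with a median of -0.24, 14 at an unadjusted p under 0.05 and 0 called by edgeR. Their mean centred level was -0.15, 0.31, -0.41 and -0.30 in ZT12 replicates 1 to 4, against 0.09 to 0.21 at ZT8, so that ZT12 replicate 2 lay above all ZT8 libraries. In the list of nuclear-encoded oxidative phosphorylation subunits, 29 of 30 differed downward with a median of -0.19 and 14 at an unadjusted p under 0.05. Glycolysis had 16 of 18 downward (median -0.18) and the proteasome 22 of 26 (median -0.11), with 3 and 6 at an unadjusted p under 0.05, against a median of -0.0040 over all genes. Members with low unadjusted p that were not called included Sdhc, of respiratory complex II, at -0.32, and Hk1, a hexokinase, at -0.24 (adjusted p = 0.0662).

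Lists of cell division and repair, which the epidermal clock is known to time, held 0 called genes in edgeR's test. The 38 S phase genes had 29 upward and a median of 0.09, and the 30 genes of G2 and mitosis had 26 downward and a median of -0.20. In ZT12 replicate 3 the mitosis list was lowest, at -1.29. The 16 nucleotide excision repair genes had 12 downward and a median of -0.08. Unadjusted p was under 0.05 for 1, 0 and 4 members of these lists, against 2712 of all 18044 genes tested. Cholesterol synthesis had 17 of 23 downward (median -0.13) and the sebaceous gland list 16 of 18 (median -0.28). The Hippo pathway, which restrains YAP, had a median of 0.04 over 20 genes with 2 at an unadjusted p under 0.05, and YAP targets a median of 0.15 over 18 genes with 4. The mean centred level of the YAP targets was 0.34 and 0.33 in ZT12 replicates 1 and 2 and -0.40 and -0.24 in replicates 3 and 4, around -0.29 to 0.09 at ZT8.

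Among cell type lists, those of growing hair, macrophages, Langerhans cells and T cells had the highest medians. EdgeR called 0 genes of these lists, while DESeq2 called at least Krt6a and Tcf7l2, of the list for follicle stem cells and the outer root sheath. The Langerhans list had 19 of 20 members upward and a median of 0.79, with 0 called by edgeR and 1 at an unadjusted p under 0.05, and its summed level was 279 to 461 CPM at ZT8 and 268 to 634 CPM at ZT12. All 11 macrophage genes differed upward with a median of 0.89, 0 called by edgeR and 5 at an unadjusted p under 0.05, from summed levels of 18.9 to 38.5 CPM and 22.7 to 54.4 CPM. Over all 18044 genes tested, 2712 were under that p. All 19 anagen hair genes differed upward with a median of 1.14, 0 called and 1 at an unadjusted p under 0.05, and their sum ran from 140 to 397 CPM at ZT8 and from 49.4 to 1103 CPM at ZT12. The basal keratinocyte list had a median of -0.08, with mean centred levels of 0.34, 0.23, -0.82 and -0.69 in ZT12 replicates 1 to 4, against -0.35 to 0.15 at ZT8. The differentiated list had a median of 0.09, with -0.34, 0.50, 0.76 and 0.49 at ZT12, against -0.33 to 0.70 at ZT8. Krt6a, the keratin of the outer root sheath and of stressed epidermis, was read at 213, 215, 199 and 194 CPM at ZT8 and at 294, 270.2, 724 and 505 CPM at ZT12, above throughout and highest in replicates 3 and 4, a difference of 1.13 (adjusted p = 0.0617). Krt6a passed with DESeq2 (adjusted p = 0.0141), with the stricter filter (adjusted p = 0.0481) and with the list covariates (adjusted p = 0.00732). It also passed without ZT12 replicate 1 or 2, at 1.30 and 1.31, and without both, at 1.57.

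In aged epidermis the same step called 35 genes, 23 higher (0.127%) and 12 lower (0.0665%), 0.194% of genes tested, with 938 at an unadjusted p of 0.05. Without aged ZT8 replicates 1, 2 and 4 in turn, 15, 8 and 0 were called, and without aged ZT12 replicates 1 and 3, 4 and 8. The aged and adult steps share no library. The 2 sets of calls shared 10 genes, 12.7% of the adult calls and 28.6% of the aged ones, all 10 with the same direction. Among them BC018473, Cry1, Snord89, Scarna3b and Rnf225 rose at both ages, and Mir703, ND2, Ptma and E130317F20Rik fell at both. Of the 79 adult calls, 76 had the same sign in aged epidermis, against 63.65% of all genes tested. All 16 small RNAs called in adult epidermis differed upward in aged epidermis, by 0.12 to 1.17, where 2 of them were called. Upward differences were general there, in 55 of 72 C/D box snoRNAs, 34 of 36 H/ACA snoRNAs and 8 of 9 small Cajal body RNAs. The median over the 133 small RNAs was 0.39 in aged against 0.34 in adult epidermis, with 17 and 16 called.

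BC018473 was read at 5.50, 5.63, 6.67 and 5.60 CPM in aged ZT8 libraries and at 15.5, 16.1, 17.2 and 12.8 CPM at aged ZT12, again without overlap and below every adult ZT12 library. It rose by 1.40 in aged epidermis (SE 0.24, adjusted p = 0.00528), against 2.34 in adult, a difference of 0.94 (SE 0.33, unadjusted p = 0.0064, edgeR adjusted p = 0.9998). Per2 differed by 0.89 in aged epidermis (adjusted p = 0.267), from a mean of 41.8 CPM at ZT8 to 77.5 CPM at ZT12. Cry1 rose by 0.84 in aged epidermis (adjusted p = 0.00396), against 1.06 in adult.

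The difference between the adult and aged steps was tested directly, and edgeR called 0 of 18044 genes, with 574 at an unadjusted p under 0.05. DESeq2 and limma also called 0, with 616 and 520. Without adult ZT12 replicates 1 and 2 edgeR called 14. The 5 genes with the smallest p had adjusted p-values of 0.9998. Snora73a differed by -0.20 in adult and 0.64 in aged epidermis, a difference of -0.84 (SE 0.23), and Scarna6 by -0.06 and 0.62. Snora74a differed by -0.23 and 0.56. Tada2b, a subunit of a histone acetyltransferase complex, rose by 0.29 in adult epidermis and differed by -0.04 in aged, and Bcar1, an adhesion adaptor, differed by 0.40 and -0.17.

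**Figure D5:**
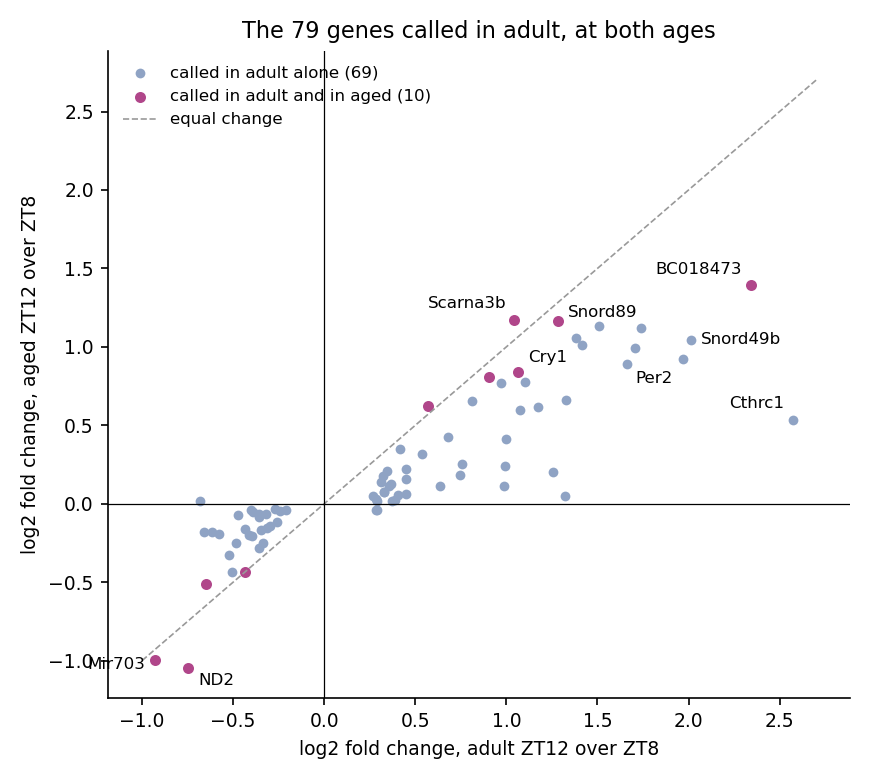
Log2 fold change at ZT12 over ZT8 in adult (horizontal) against aged (vertical) epidermis for the 79 genes called in adult, the 10 also called in aged in magenta, with a dashed line of equal change. BC018473 lies at 2.34 and 1.40 and Per2 at 1.66 and 0.89, and 76 of the 79 adult calls lie in quadrants of equal sign.

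The step into the light phase offers a second comparison in adult mice that shares no library with this one. From ZT20 to ZT0, 562 genes were called (3.11% of genes tested), 274 higher (1.52%) and 288 lower (1.6%). Without ZT0 replicates 1, 3 and 4 in turn 275, 136 and 175 were called, and without ZT20 replicates 1 and 2, 86 and 139. It shared 10 genes with the 79, 12.7% of the latter and 1.78% of the former, and 7 of the 10 moved in opposite directions. Per2 fell by 1.92 there (adjusted p = 0.000257), Cry1 fell by 0.89, and Lonrf1, Pdxk and Nfxl1 also fell after rising toward ZT12. Brcc3, a deubiquitinase, moved the same way in both. BC018473 differed by -0.11 (adjusted p = 0.821). Of all 79, 46 had opposite signs in the 2 steps and 33 the same sign, where 47.29% of all genes tested had the same sign.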

How the data were processed

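Total RNA libraries were made with a stranded ribosomal-depletion kit, per the labels' protocols. The authors trimmed reads with Trim Galore, aligned them with STAR 2.7.10a to mm10/GRCm38 and counted them with featureCounts, per the submitters' processing notes; neither strand setting nor annotation is given in the sources used here. The deposited table holds raw counts per gene. Groups came from age and time labels. Symbols came from RefSeq, and 1520 of 24996 IDs without a match held 3.657% of counts. In R 4.3.3, edgeR 4.0.16 fitted 1 mean per group over all 48 libraries (TMM scaling, robust quasi-likelihood F test, 36 residual degrees of freedom, minimum count 10, minimum total 15, Benjamini-Hochberg adjustment), keeping 18044 genes. Calls needed an adjusted p under 0.05. Contrasts were ZT12 over ZT8 in adult and aged mice, their difference, and adult ZT0 over ZT20. The fit was tested on simulated data with known changes. These were drawn with 1 spread per gene for all groups, so they lacked the split between the ZT12 pairs.

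Named genes are the 12 largest rises and 12 largest falls among called genes with a symbol that is not a predicted one and a mean log2 CPM of at least 0, members of the 3 clock lists, up to 4 members with the smallest p from each other list, and the 5 smallest p for the difference between ages. Members and lists were chosen with earlier results of these data known. Alternatives used DESeq2 1.42.0, limma 3.58.1, other filters, thresholds, samples, a replicate block, list means as covariates and leaving out libraries. P-values cover the spread between libraries, and biological variation between them was 18.0% as a coefficient. Some items that the rule names are not reported here.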

Additional observations from a re-analysis of the deposited data

Results flagged for a closer look

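Over 53 named genes, the 106 groups of 4 adult libraries at ZT8 or ZT12 were searched for a library far from the other 3, which chance alone flags in about 1 group in 20; 2 were found. Rnu5g, the U5 RNA that rose, was at 17.8 CPM in ZT12 replicate 1, where the other 3 ZT12 libraries lay between 12.2 and 12.3 CPM. Usp2, the clock output deubiquitinase that did not pass the test, was at 11.3 CPM in ZT8 replicate 2, where the other 3 ZT8 libraries lay between 7.24 and 7.57 CPM.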

How the results depend on the processing

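Of 138 named genes not called in the adult step, 42 changed sign under some alternative. Of these Bhlhe40, at 0.02, passed with the other sign, at -1.44 without ZT12 replicates 1 and 2, and the other 41 did not, and 64 of the 138 passed under some alternative with their sign. No gene called in the adult step changed sign under any alternative. DESeq2 called 154 higher and 158 lower genes in the adult step, against 50 and 29, and limma called 44 lower. No filter on low counts left 25 and 11, a stricter filter 78 and 55, an adjusted p under 0.01 left 17 and 3, and a log2 change of at least 1 left 19 and 0. With fibroblast and Langerhans list means as covariates 701 were higher and 842 lower. The 8 libraries fitted alone gave 3 and 0. Leaving out 1 library gave 16 to 238 higher and 4 to 310 lower. Chosen after seeing the data, leaving out small and mitochondrial RNAs gave 28 and 13, leaving out ZT12 replicates 1 and 2 gave 919 and 1566, and leaving out replicates 3 and 4 gave 13 lower. The aged step's 35 calls became 62 with DESeq2, 3 at 0.01, 53 with the covariates and 0 to 38 without 1 library. The 0 calls for the difference between ages became 14 without adult ZT12 replicates 1 and 2. The 562 calls from ZT20 to ZT0 became 1060 with DESeq2, 351 without the filter, 66 at 0.01, 359 with the covariates and 86 to 541 without 1 library. The causes of these changes were not tested.

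The labels give no pairing by replicate number. The correlations of same-numbered ZT8 and ZT12 libraries were -0.22, 0.08, -0.07 and 0.15, against -0.48 to 0.44 for differently numbered ones. These values cannot decide whether same-numbered libraries were handled together. A replicate block over all 48 libraries gave 45 higher and 29 lower genes, with 37, 0 and 567 calls in the other comparisons, and a block over the 8 libraries alone gave 0 and 0.

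Of the 79 calls, 0 passed under every alternative, since the block over 8 libraries called none. Immune, hair and early response genes spread widely between the ZT12 libraries. A gene not called is not shown to be unchanged.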

Other observations

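Cthrc1, a secreted collagen-associated protein below the level used for naming and chosen after its values were seen, had 2, 2, 1 and 2 counts at ZT8 and 6, 8, 14 and 13 at ZT12, without overlap, a rise of 2.57 log2 units by edgeR. Cthrc1 was lost without any 1 ZT8 library and without ZT12 replicate 3 or 4, at 2.35 to 2.67, and DESeq2 gave it no adjusted p. Among transcripts that did not pass edgeR's test, Cirbp, the cold-inducible RNA-binding protein, differed by -0.41, Asns, asparagine synthetase, by -0.31, Ebp, a sterol isomerase of cholesterol synthesis, by -0.34, and Tcf7l2, a Wnt pathway transcription factor, by 0.49 (adjusted p = 0.0561). Tcf7l2 passed with DESeq2, with the stricter filter, with the list covariates, without ZT12 replicate 2 and without ZT12 replicates 1 and 2, at 0.47 to 0.57.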
